A study of Homo sapiens with 2 samples.

Results

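The genes described here are the DNA repair and DNA damage response genes that the authors listed as differing between GPR126 knockdown and scramble HT-29 cells. HT-29 is a human colon adenocarcinoma epithelial line. The tested cells were depleted of GPR126 (now ADGRG6), an adhesion G protein-coupled receptor, by RNA interference with a short hairpin, and the cells they were compared with carried a scramble control. Each group was 1 library of total RNA from HT-29, and neither a second hairpin, a clone nor a harvest time is described in the labels. Genes were taken when their gene ontology process annotation in the deposited table named DNA repair, DNA recombination or DNA damage. Those annotated to DNA replication or RNA splicing, the MCM and GINS helicase genes, and 11 named chaperone, stress and cell cycle genes were left out. This gave 66 of 2007 listed genes, from 89 whose annotation held one of the phrases.

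Cells meet DNA damage with a set of partly separate pathways. Breaks through both strands are sensed by the kinase ATM and marked by phosphorylated H2AX, and are joined either by homologous recombination, which copies a sister chromatid, or by end joining, which starts with the Ku heterodimer. Crosslinks are handled by the Fanconi anaemia proteins, damaged bases by glycosylases, mispaired bases by the MutS and MutL proteins, and bulky or ultraviolet lesions by nucleotide excision repair. Many genes of recombination and of the Fanconi pathway are known to be transcribed mainly in cells that pass through S phase.

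The knockdown library held 6010192 reads and the scramble library 5753320 reads, and the values are read counts or reads per 1e6 of those totals (RPM). GPR126 itself had 2 reads in the knockdown library and 68 reads in the scramble library, so that its level was 35.5-fold lower (interval 9.46 to 299). With 1 library per group no difference has a replicate check, and each interval below is a 95% Clopper-Pearson interval that covers counting error only. The smallest absolute log2 ratio among the authors' deposited values is 1, so every gene was already selected for a difference of about 2-fold and genes without one cannot be seen. None of 11 colon epithelium markers, 5 leukocyte markers or 4 endothelial markers was listed, and of 6 fibroblast markers COL1A1 was listed, with 227 reads in the knockdown library and 83 in the scramble library. The labelled cell type could therefore not be checked from these genes, and their part in the results was not tested.

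The promoters below show what the upstream sequence of the genes with the lowest knockdown ratios looks like. They are the members with the lowest ratios whose RefSeq promoter held at least 1 of the motifs searched, read 5′ to 3′ on the gene's strand from GRCh38.p14, with the matching letters in capitals.
EEPD1, chr7:36153130-36153189, plus strand, E-box: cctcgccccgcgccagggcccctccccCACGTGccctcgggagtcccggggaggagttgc
EXO1, chr1:241848197-241848226, plus strand, E2F-type site just after the start, in a window that spans it: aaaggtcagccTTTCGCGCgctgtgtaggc
TP73, chr1:3652266-3652325, plus strand, E2F-type site: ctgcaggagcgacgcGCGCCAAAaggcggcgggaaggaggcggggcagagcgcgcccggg
RAD54L, chr1:46247595-46247654, plus strand, CCAAT box on the other strand: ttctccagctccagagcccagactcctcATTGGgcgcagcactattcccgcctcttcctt
ATM, chr11:108223007-108223066, plus strand, cell cycle homology region (CHR) letters: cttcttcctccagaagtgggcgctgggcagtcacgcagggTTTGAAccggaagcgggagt

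The motifs were searched on both strands in 300 bases, of which 250 lie before the annotated start and 50 after it, and 53 of the 66 genes had an entry. The E2F-type letters were TTTCCCGC, TTTCGCGC, TTTGCCGC and TTTGGCGC. They were present in 7 of 41 promoters of genes lower in the knockdown (17.1%) and in 1 of 12 promoters of genes higher in it (8.33%), beside 3.33% of all 27305 promoters. Among all listed genes the shares were 9.63% for lower genes and 4.23% for higher ones. The CCAAT letters were present in 51.2% of the lower and 33.3% of the higher genes' promoters, beside 35.7% of all. Among all listed genes the CCAAT shares were 38.8% for lower and 36.5% for higher ones. For the CHR letters TTTGAA and TTCGAA the share was 12.2% in the lower genes, 14.01% in all listed lower genes and 16.6% in all promoters. The E-box CACGTG was present in 4.88% of the lower genes' promoters, in 13.5% of those of all listed lower genes and in 7.43% of all. These are letter matches in short windows and describe sequence only.

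Most of the repair genes were lower in the knockdown library. In a bulk library, fewer cells that express a gene and less of its RNA per cell cannot be told apart. Of the 66, 53 were at least 2-fold lower and 13 at least 2-fold higher, or 80.3% and 19.7%. Over all listed genes 66.7% were at least 2-fold lower and 33.2% at least 2-fold higher, so the repair genes' split lay on the lower side of a background that was itself mostly lower. The median log2 ratio of knockdown over scramble, with 0.5 reads added to each count, was -1.23 for the 66 genes and -1.16 for all listed genes. Among the lower genes alone it was -1.36 in both sets. Among the higher genes it was 1.29 for repair genes and 1.46 for all listed genes. The split changed with the scaling: setting the median log2 ratio of all listed genes to 0 left 13 repair genes 2-fold higher and 7 lower, while 6.08% of all listed genes were then 2-fold lower. Upper quartile scaling left 13 higher and 15 lower, beside 15.0% of all listed genes lower. With either scaling 668 of the 2007 listed genes (33.3%) were 2-fold higher, beside 19.7% of the repair genes.

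**Figure D1:**
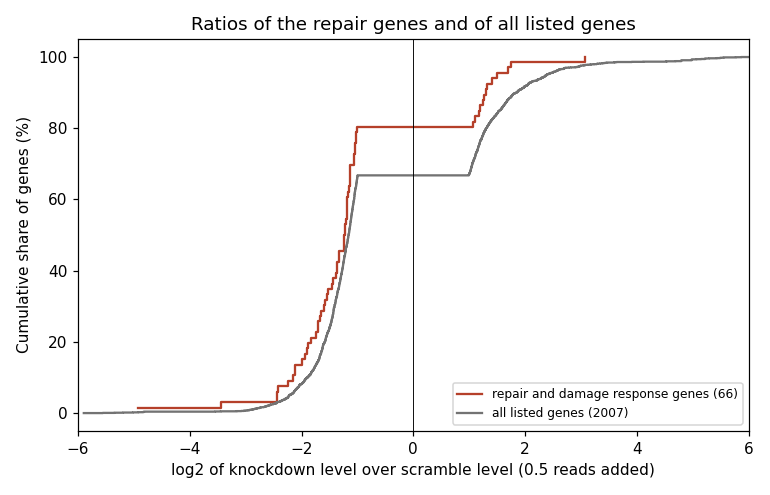
Cumulative share of genes (y axis, percent) against the log2 ratio of knockdown over scramble with 0.5 reads added (x axis), for the 66 repair and damage response genes and for all 2007 listed genes; values beyond 6 in either direction are outside the axis. The flat stretch between -1 and 1 is the authors' selection, and the repair genes reach 80.3% there, against 66.7% for all listed genes.

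By library totals, large differences were more often downward. At 4-fold, 10 repair genes (15.2%) were lower, beside 8.57% of all listed genes, and 1 was higher, beside 8.67%. Of those 10, 6 had fewer than 20 knockdown reads and wide intervals, and 4, among them EXO1, RAD54L and BRCC3, had at least 100 scramble reads. The 4-fold split also changed with the scaling. With the median log2 ratio of all listed genes set to 0, all 13 higher genes were beyond 4-fold, the lowest being PHLDA3 (log2 ratio 2.23). Of the reported lower genes, only EEPD1 (-3.76) and RAD51L3 (-2.29) were then beyond it. All listed genes were not counted at 4-fold with that scaling. The counting interval lay wholly beyond 2-fold for 27 lower genes (40.9%) and 6 higher genes (9.09%), beside 33.1% and 16.4% of all listed genes. Summed over the 66 genes, the level was 2091 RPM in the knockdown library and 3736 RPM in the scramble library. The genes carrying a DNA repair phrase leaned further down, with 31 of 35 lower and a median log2 ratio of -1.36. Those annotated to DNA damage without repair or recombination had 15 of 22 lower (68.2%) and a median of -1.14, near the values of all listed genes.

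**Figure D2:**
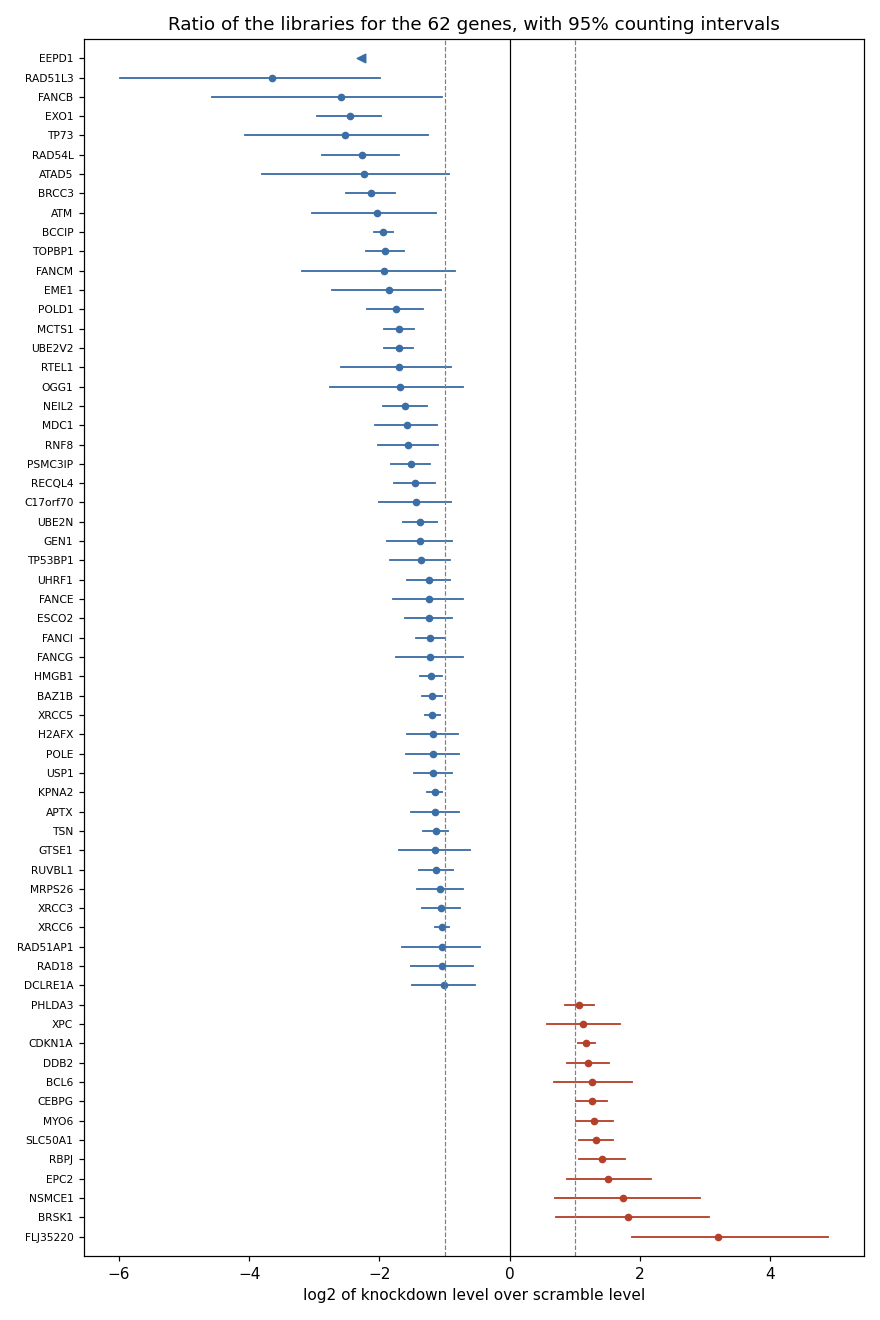
Log2 of the knockdown level over the scramble level (x axis) for 62 of the 66 genes (y axis), with 95% counting intervals as lines, blue for lower and red for higher genes; dashed lines mark 2-fold. The triangle for EEPD1, which had no knockdown read, marks a bound of 4.88-fold. The intervals of BCCIP, with 492 knockdown reads, and XRCC5, with 924, are narrow, and those of RAD51L3, with 3, and FANCB, with 4, are wide.

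Homologous recombination genes were lower, except that XRCC3 and RAD51AP1 turned slightly positive when the median listed ratio was set to 0 (the median scaling). In a list of 51 recombination genes 14 were listed, all 14 lower by library totals, and 9 of them are among the 66 genes, with a median log2 ratio of -1.52. This and the counts of the lists that follow stand beside the 66.7% of all listed genes that were lower. RAD54L, a translocase that drives strand exchange, had 31 reads (5.16 RPM) in the knockdown library and 143 reads (24.86 RPM) in the scramble library, and was 4.82-fold lower (3.25 to 7.35). RAD51L3 (RAD51D), a recombinase paralogue that helps filaments form on DNA, had only 3 knockdown reads against 36 scramble reads. Its 12.5-fold lower level was the lowest ratio among the genes with a knockdown read, but the interval ran from 3.96 to 63.6.

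The other paralogue listed, XRCC3, had 147 knockdown and 292 scramble reads and was 2.08-fold lower (1.70 to 2.55), an interval below that of RAD51L3. PSMC3IP (HOP2), a partner of the recombinases, was 2.87-fold lower (2.34 to 3.55), with 128 knockdown and 352 scramble reads. RAD51AP1, which stimulates the formation of joint molecules, had 37 knockdown and 73 scramble reads and was 2.06-fold lower (1.37 to 3.15). Filament formation, strand exchange and accessory steps were each represented among the lower genes. The endonucleases that cut recombination junctions were lower as well. EME1, the partner of MUS81, had 17 knockdown and 59 scramble reads (3.63-fold lower, 2.08 to 6.63). GEN1, the Holliday junction resolvase, had 48 knockdown and 119 scramble reads (2.59-fold lower, 1.84 to 3.70).

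Genes known to act in turn where a DNA break is marked fall under several of the lists. Those given here were grouped after their values were seen, and were lower by library totals, as were 66.7% of all listed genes. ATM, the kinase that starts it, had 13 reads (2.16 RPM) in the knockdown library and 51 reads (8.86 RPM) in the scramble library, a 4.10-fold lower level (2.20 to 8.21). H2AFX (H2AX), the histone that ATM phosphorylates around a break, had 80 knockdown and 174 scramble reads and was 2.27-fold lower (1.73 to 2.999). MDC1, which binds that phosphorylated histone, had 52 knockdown and 149 scramble reads and was 2.99-fold lower (2.17 to 4.19). The ubiquitin step that follows was lower too. RNF8, the ubiquitin ligase that MDC1 recruits, had 55 knockdown and 155 scramble reads (2.94-fold lower, 2.15 to 4.08). UBE2N (UBC13), the conjugating enzyme used by RNF8, had 166 knockdown and 413 scramble reads (2.60-fold lower, 2.17 to 3.13).

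Both of the listed genes that act on or read the ubiquitin marks were also lower. BRCC3, the deubiquitinase of the BRCA1-A complex, had 76 reads (12.65 RPM) in the knockdown library and 318 reads (55.27 RPM) in the scramble library, and was 4.37-fold lower (3.39 to 5.69). TP53BP1, which reads the marks and favours end joining, had 57 knockdown and 141 scramble reads and was 2.58-fold lower (1.89 to 3.58). Of these genes, the intervals of ATM, MDC1, RNF8, UBE2N and BRCC3 lay wholly beyond 2-fold, and those of H2AFX and TP53BP1 did not. With the median scaling the log2 ratios of these genes ran from -0.96 for BRCC3 to -0.02 for H2AFX.

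Of a hand-written list of 39 checkpoint genes, 11 were listed and all 11 were lower, 7 of them among the 66 genes. The median scaling turned 1 of the 11 that is not among the 66. CDKN1A and BRSK1, which is annotated to the G2 checkpoint, are in no pathway list here and were higher. TOPBP1, the scaffold that activates the replication stress kinase ATR, had 123 knockdown and 443 scramble reads and was 3.76-fold lower (3.07 to 4.63). BCCIP, which binds BRCA2 and CDKN1A, had 492 reads (81.86 RPM) in the knockdown library and 1807 reads (314.08 RPM) in the scramble library. It was 3.84-fold lower (3.47 to 4.25).

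**Figure D3:**
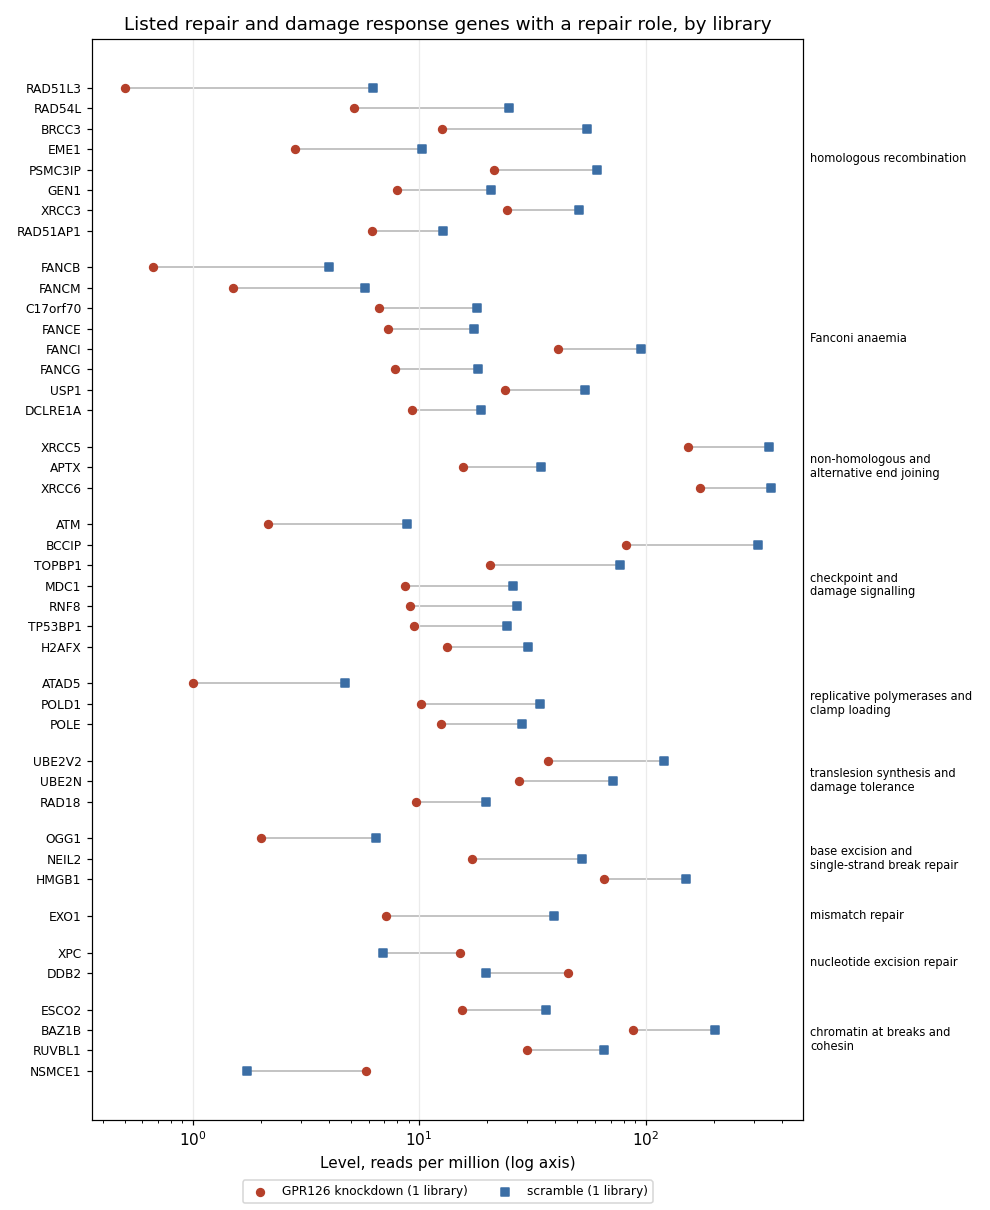
Level in RPM (x axis, log scale) in the knockdown library (red circles) and the scramble library (blue squares) for 42 of the 44 genes that also belong to a repair pathway list, grouped by pathway. The red point lies left of the blue one for 39 genes and right of it for XPC, DDB2 and NSMCE1; levels are not corrected for gene length and are compared between libraries only.

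Fanconi anaemia genes were lower in each branch of the pathway that was listed, with DCLRE1A and 1 gene outside the 66 turned by the median scaling. Of a list of 20 genes 9 were listed, all lower by library totals, and 8 belong to the 66 genes, with a median log2 ratio of -1.23. With the median scaling FANCE (-0.08), FANCI (-0.06), FANCG (-0.05) and USP1 (-0.02) had log2 ratios close to 0. Those of FANCB (-1.29), FANCM (-0.72) and C17orf70 (-0.27) stayed further below it. In the core ubiquitin ligase complex FANCB had 4 knockdown and 23 scramble reads (6.01-fold lower, 2.05 to 23.9). FANCE had 44 knockdown and 100 scramble reads (2.37-fold lower, 1.65 to 3.47), and FANCG had 47 knockdown and 105 scramble reads (2.33-fold lower, 1.64 to 3.37). C17orf70 (FAAP100), the partner of FANCB, had 40 knockdown and 104 scramble reads and was 2.72-fold lower (1.87 to 4.02). FANCM, the translocase that brings the complex to DNA, was 3.83-fold lower from 9 knockdown and 33 scramble reads (1.79 to 9.10).

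The substrate of that complex and the enzyme that resets it were better covered by reads. FANCI, which is ubiquitinated together with FANCD2, had 246 reads (40.93 RPM) in the knockdown library and 549 reads (95.42 RPM) in the scramble library. It was 2.33-fold lower (2.002 to 2.72). USP1, the deubiquitinase that removes the mark, had 144 knockdown and 312 scramble reads and was 2.26-fold lower (1.85 to 2.78). DCLRE1A (SNM1A), a nuclease that digests past a crosslink, was 2.01-fold lower (1.45 to 2.83), the smallest difference of all 66 genes.

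Of 17 end joining genes 5 were listed, all lower by library totals, and the median scaling turned 3 of them, among these XRCC6 and APTX. XRCC5 had a log2 ratio of -0.03 with that scaling. The 3 genes among the 66 were lower by little more than 2-fold. XRCC5, which encodes Ku80, had 924 reads (153.74 RPM) in the knockdown library and 2020 reads (351.10 RPM) in the scramble library, and was 2.28-fold lower (2.11 to 2.47). XRCC6, which encodes its partner Ku70, had 1043 reads (173.54 RPM) in the knockdown library and 2059 reads (357.88 RPM) in the scramble library, and was 2.06-fold lower (1.91 to 2.22). The intervals of the partners overlapped. APTX, which removes AMP from abortive ligation ends, had 94 knockdown and 199 scramble reads and was 2.21-fold lower (1.72 to 2.86).

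The listed damage tolerance, polymerase and clamp loading genes were lower by library totals as well. Of 20 damage tolerance genes 5 were listed, all lower, with RAD18 and 1 gene outside the 66 turned by the median scaling. UBE2V2 (MMS2), which pairs with UBE2N to build ubiquitin chains on PCNA, had 222 knockdown and 691 scramble reads and was 3.25-fold lower (2.79 to 3.80), an interval that overlaps that of UBE2N. RAD18, the ligase that starts PCNA ubiquitination, had 58 knockdown and 114 scramble reads and was 2.05-fold lower (1.48 to 2.87). Of 16 polymerase and clamp loading genes 10 were listed, all lower, 3 of them among the 66, and the median scaling turned 3 of the other 7. POLD1, the catalytic subunit of polymerase delta, had 61 knockdown and 196 scramble reads (3.36-fold lower, 2.51 to 4.55). POLE, that of polymerase epsilon, had 75 knockdown and 163 scramble reads (2.27-fold lower, 1.72 to 3.03). ATAD5, which unloads PCNA, had 6 knockdown and 27 scramble reads (4.70-fold lower, 1.90 to 13.9). With the median scaling the log2 ratio was -0.98 for ATAD5, -0.58 for POLD1 and -0.02 for POLE.

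In base excision repair 6 of 25 genes were listed, 5 lower and 1 higher. The higher one is not among the 66 genes. The glycosylase NEIL2, which removes oxidised pyrimidines, had 103 knockdown and 300 scramble reads and was 3.04-fold lower (2.42 to 3.84). OGG1, the glycosylase for oxidised guanine, had 12 knockdown and 37 scramble reads and was 3.22-fold lower (1.64 to 6.78). HMGB1, a chromatin protein with a cofactor role in this pathway, was 2.31-fold lower (2.05 to 2.61), with 393 knockdown and 869 scramble reads. With the median scaling the log2 ratio was -0.49 for OGG1, -0.44 for NEIL2 and -0.05 for HMGB1. RefSeq names 50 HMGB1 pseudogenes, and how reads shared with them were counted is not stated. Pseudogene symbols were also found for 8 other genes described here, among them XRCC6 with 5, UBE2V2 with 4 and KPNA2 with 3.

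Mismatch repair had 2 of 11 genes listed, both lower by library totals, and the median scaling turned 1 of them. EXO1, the exonuclease that removes the mispaired strand and also resects breaks, had 43 reads (7.15 RPM) in the knockdown library and 226 reads (39.28 RPM) in the scramble library. It was 5.49-fold lower (3.95 to 7.80), the lowest ratio of the 47 genes whose larger count reached 100 reads.

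Nucleotide excision repair ran the other way at its damage sensors. Of 32 genes in the list 4 were listed, 2 lower and 2 higher, and both of those among the 66 genes were higher. The median scaling turned 1 of the 2 lower genes. XPC, which recognises distorted DNA, had 91 reads (15.14 RPM) in the knockdown library and 40 reads (6.95 RPM) in the scramble library, and was 2.18-fold higher (1.49 to 3.24). DDB2, which binds ultraviolet photoproducts and hands them to XPC, had 273 reads (45.42 RPM) in the knockdown library and 114 reads (19.81 RPM) in the scramble library, and was 2.29-fold higher (1.84 to 2.88). The other 28 genes of the list, which include the incision nucleases and the helicase subunits, were not listed. Of the 10 pathway lists with a gene among the 66, 8 had no higher gene among the 66. The exceptions were this list and that for chromatin. The base excision list also held 1 higher gene, outside the 66.

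**Figure D4:**
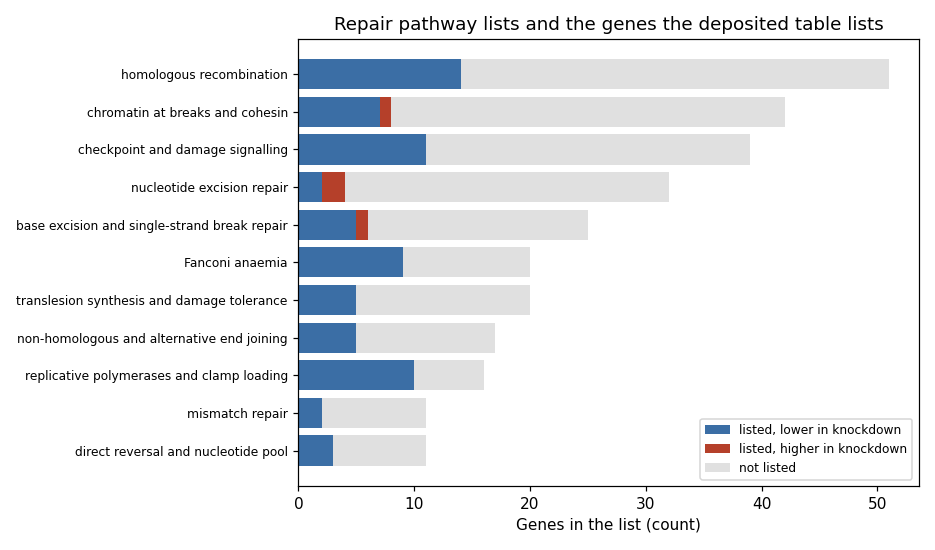
Number of genes in each of 11 hand-written repair pathway lists (x axis), split into those listed and lower in the knockdown, those listed and higher, and those not listed. Recombination has 14 lower and none higher, nucleotide excision repair has 2 lower and 2 higher, and most genes of nearly every list are not listed.

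Of 42 chromatin and cohesion genes 8 were listed, 7 lower and 1 higher, and 4 belong to the 66, 3 of them lower. RUVBL1 was turned by the median scaling, which left ESCO2 at a log2 ratio of -0.07 and BAZ1B at -0.03. ESCO2, the acetyltransferase that locks cohesin on sister chromatids in S phase, was 2.36-fold lower (1.84 to 3.04), with 93 knockdown and 210 scramble reads. BAZ1B (WSTF), a kinase for a tyrosine of H2AX, was 2.29-fold lower (2.06 to 2.54), with 530 knockdown and 1161 scramble reads. RUVBL1, an ATPase of the INO80 and TIP60 complexes, was 2.19-fold lower (1.83 to 2.63), with 180 knockdown and 377 scramble reads. The exception was NSMCE1, a subunit of the SMC5/6 complex, with 35 knockdown and 10 scramble reads (3.35-fold higher, 1.62 to 7.59). EPC2, a component of the TIP60 acetyltransferase complex in no pathway list here, was also higher, with 86 knockdown and 29 scramble reads (2.84-fold, 1.84 to 4.49).

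Helicases annotated to repair outside the pathway lists were lower, as were UHRF1 and EEPD1. RECQL4, a RecQ helicase, had 114 knockdown and 300 scramble reads and was 2.75-fold lower (2.21 to 3.44). RTEL1, which takes apart recombination intermediates and telomere loops, had 17 knockdown and 53 scramble reads and was 3.26-fold lower (1.86 to 6.0). All 8 genes with a helicase function term among the 66 were lower, beside 94.7% of the 38 such genes in the whole table. UHRF1, which reads hemimethylated DNA behind the fork, had 113 knockdown and 256 scramble reads (2.37-fold lower, 1.89 to 2.98). With the median scaling its log2 ratio was -0.08, beside -0.30 for RECQL4 and -0.52 for RTEL1. EEPD1, a nuclease of stalled forks, had no knockdown read and 14 scramble reads, a level at least 4.88-fold lower against a floor of 3 knockdown reads.

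Genes with an apoptosis process term numbered 9 among the 66, of which 6 were lower and 3 higher, and 53.7% of all listed genes with that term were lower. A phrase that chose TP73, ATM and PHLDA3 itself names apoptosis. They include TP73, CDKN1A and PHLDA3, given next, and ATM, HMGB1, XRCC5 and BCL6, given elsewhere. GTSE1 and BRSK1 do not carry the term and are given here for their cell cycle roles or annotations. TP73, a transcription factor that can induce apoptosis, had 6 knockdown and 33 scramble reads and was 5.75-fold lower (2.38 to 16.8). GTSE1, a protein of the S and G2 phases, was 2.21-fold lower (1.53 to 3.24), with 44 knockdown and 93 scramble reads, and was turned by the median scaling. Against these, CDKN1A (p21), the cyclin-dependent kinase inhibitor, had 1656 reads (275.53 RPM) in the knockdown library and 700 reads (121.67 RPM) in the scramble library. It was 2.26-fold higher (2.07 to 2.48). PHLDA3, which restrains the kinase AKT, had 556 knockdown and 254 scramble reads and was 2.10-fold higher (1.80 to 2.44). BRSK1, a polarity kinase annotated to the G2 checkpoint, had 33 knockdown and 9 scramble reads and was 3.51-fold higher (1.64 to 8.34).

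The remaining lower genes carry a DNA damage or DNA recombination annotation beside another main function. KPNA2, TSN and MRPS26 were turned by the median scaling. MCTS1, a translation re-initiation factor, had 206 knockdown and 643 scramble reads and was 3.26-fold lower (2.78 to 3.83). KPNA2, an importin that carries nuclear proteins, had 890 knockdown and 1894 scramble reads and was 2.22-fold lower (2.05 to 2.41). TSN (translin) and MRPS26, a mitochondrial ribosomal protein, were 2.20-fold (1.92 to 2.53) and 2.09-fold lower (1.64 to 2.67).

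Most of the higher genes were in no hand-written pathway list, though EPC2 and FLJ35220 carry a DNA repair term. Among the 53 lower genes 12 were in none. Of the 13 higher genes 10 were in none. Besides those above they were the transcription factors BCL6, CEBPG and RBPJ, the motor protein MYO6, the sugar transporter SLC50A1 and FLJ35220. FLJ35220 (ENDOV), an endonuclease for inosine, had 48 reads (7.99 RPM) in the knockdown library and 5 reads (0.87 RPM) in the scramble library. Its 9.19-fold higher level (3.68 to 29.6) was the highest ratio of the 66. RBPJ, the DNA-binding effector of Notch signalling, had 253 knockdown and 91 scramble reads and was 2.66-fold higher (2.09 to 3.42). SLC50A1 was 2.50-fold higher (2.10 to 2.99), with 473 knockdown and 181 scramble reads.

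MYO6 was 2.46-fold higher (2.03 to 2.99), with 385 knockdown and 150 scramble reads. CEBPG, a partner of ATF4, was 2.39-fold higher (2.03 to 2.83), with 510 knockdown and 204 scramble reads. BCL6, a transcriptional repressor, was 2.41-fold higher (1.61 to 3.67), with 88 knockdown and 35 scramble reads. Of the 7 genes with a nuclease function term, 6 were lower and FLJ35220 was higher, and 96.7% of the 30 listed genes with such a term were lower.

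Other annotation terms were shared unevenly. The meiosis and cell cycle terms come from the same process annotation that chose the genes, and the phrase that chose GTSE1 names the cell cycle. The shares of genes carrying these terms are therefore not independent of that choice. A nucleus term was carried by 60 of the 66 genes (90.9%), beside 36.3% of all listed genes. A chromosome component term was carried by 10 genes, all lower, and 87.1% of the 70 listed genes with that term were lower. A meiosis term was carried by 7 genes (10.6%), beside 0.847% of all listed genes, and all 7 were lower, among them RAD51L3, EXO1, RAD54L, ATM, PSMC3IP and H2AFX, as were 94.1% of the 17 listed genes with the term. A cell cycle process term was carried by 21 genes, of which 18 were lower and XPC, CDKN1A and BCL6 were higher. Of all 179 listed genes with that term 78.8% were lower. In position, 16 of the 53 genes with a promoter entry had another gene starting within 1000 bases on the opposite strand and facing away. In 1 case that neighbour was itself listed: CMC4, beside BRCC3, had 21 knockdown and 55 scramble reads and a log2 ratio of -1.43.

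Counting all pathway lists together, 77 of 284 named repair genes were in the table, 73 of them lower and 4 higher, beside 66.7% of all listed genes lower. Of these, 33 are outside the 66 genes. The median log2 ratio of the 77 was -1.36.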

How the data were processed

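RNA from 2 HT-29 libraries, 1 GPR126 knockdown and 1 scramble, was compared in the authors' table of 2007 genes. The authors deposited whole-number read counts per gene. The column the authors deposited as TPM is the count per 1e6 reads of the library total (RPM, no gene length), within 0.005 for 100% of counts above 0, and a count of 0 was entered as 0.01. The authors deposited log2 ratios (knockdown over scramble) and p-values with an FDR of at most 0.000999, which were not used as evidence. For the aligner, the counting tool and the genome build, no tool or version is given in the sources used here. The listed genes took 11.5% of the knockdown and 15.8% of the scramble reads.

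Folds are ratios of counts scaled to the totals the RPM values imply, with 95% Clopper-Pearson intervals. Log2 ratios have 0.5 reads added. A zero count gives a bound against 3 reads in that library. No test across genes was run. Role lists were matched by Entrez number through GRCh38.p14 RefSeq names (283 of 284 symbols), and promoters came from RefSeq GRCh38.p14. Every listed member is counted, and 4 are not reported here by name. Both counts, fold and interval were to be given for each higher member, the 4 lowest ratios with at least 20 reads per list and the 10 lowest with at least 100 reads. Other members with such values were named for completeness. The members and lists were chosen with earlier results of these data known. The intervals were checked on simulated Poisson counts without the authors' selection, so their coverage after that selection was not tested. Computation used scipy 1.17.1, pandas 2.3.3 and numpy 2.4.6 in Python 3.11.15, with plots from matplotlib 3.10.9.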

Additional observations from a re-analysis of the deposited data

How the results depend on the processing

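No paired analysis was possible because the knockdown and the scramble were 1 library each, which also means that none could be left out. Pseudocounts of 0.05 and 5 reads and the authors' RPM values kept the 61 reported ratios that have a counting interval inside it. EEPD1, with no knockdown read, ran from -8.20 with 0.05 reads to -1.99 with 5. Upper quartile scaling removed a log2 shift of -0.71 and reversed none, leaving 15 genes 2-fold lower and a median log2 ratio of -0.52. It moved 49 of the 62 reported ratios outside their counting interval. Setting the median of the listed ratios to 0 removed -1.16, left 7 genes lower and a median of -0.07, and reversed 11 reported genes: APTX (0.02), DCLRE1A (0.16), GTSE1 (0.03), KPNA2 (0.0074), MRPS26 (0.10), RAD18 (0.13), RAD51AP1 (0.13), RUVBL1 (0.03), TSN (0.02), XRCC3 (0.11) and XRCC6 (0.12). A further 43 reported genes kept their direction but moved outside their counting interval. Both scalings were computed on the called genes only, of which 66.7% were lower. What the shifts reflect was not tested. By library totals, a 4-fold limit left 10 lower and 1 higher, and intervals beyond 2-fold 27 and 6. Limiting the rule to DNA repair gave 31 lower, 4 higher and a median of -1.36. Members in a pathway list gave 41 lower and 3 higher of 44, and a median of -1.35. Chosen after seeing the data, members in no list gave 12 lower and 10 higher of 22, and a median of -1.10. Also chosen then, members with at least 100 reads gave 40 lower and 7 higher of 47. Fewer genes or a stricter limit entered in these counts. The split also differed between members in a list and those in none. The lists were written by hand with earlier results of these data known, so that difference is not independent of the values. The floors, the pseudocounts, the RPM values and the rule without its exclusions kept both counts within 1.5 times. Depth limits the 10 lower genes with under 20 knockdown reads.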
